A study of Arabidopsis thaliana with 14 samples.

Results

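Transcripts of 5 auxin-responsive genes of Arabidopsis thaliana seedlings were followed on 14 arrays: GH3.3 (AT2G23170), GH3.5 (AT4G27260, also called WES1) and GH3.17 (AT1G28130), which encode auxin-conjugating enzymes, IAA29 (AT4G32280), which encodes a repressor of auxin signalling, and HAT2 (AT5G47370), which encodes a homeodomain factor. The genes were chosen by name with earlier results of these data known, so counts among them are a description. Each was found through the platform annotation as 1 probe set of 1 gene. In this way 5 of the 22810 probe sets on the array are described. All 5 passed the filter on low signal that left 17787 probe sets for testing.

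The study addressed the role of brassinosteroids, steroid hormones of plants, as seedlings change from dark growth to light. Col, the wild type, was sampled at 7 days in darkness, without or with brassinolide (BL, a potent brassinosteroid), and a further group from each condition then had 2 h of light. The mutant det2, which makes too little brassinosteroid, grew in darkness or in light for 7 days, and a further det2 group, 14 days old, went from growth in light into 8 h of darkness. There were 7 groups with 2 arrays apiece, each of total RNA from whole seedlings, and the det2 allele, the BL dose and its duration, and the light intensity are not given in the sources used here. No det2 group received BL, no wild-type group was grown in light throughout, and no group was moved without a change of light.

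Auxin acts by bringing Aux/IAA repressor proteins to F-box receptors, which leads to their breakdown and frees the auxin response factors to activate genes. The targets of those factors include the GH3 and Aux/IAA genes themselves, so that a rise in auxin raises both the enzymes that inactivate it and the repressors of its signalling. GH3 enzymes of this group join amino acids to indole-3-acetic acid, the main auxin. Auxin and brassinosteroids together promote elongation of the hypocotyl, the seedling stem, in darkness and in shade.

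The median over probe sets was 187.8 to 218.6 signal units on each array, and log2 signals of the 2 arrays of a group correlated at r = 0.963 to 0.981 across probe sets. The markers checked against the labels were 6 named genes of green tissue out of 8 listed and 2 root hair genes out of 6, EXPA7 and EXPA18. The summed signal of the green markers was 15657 to 22336 in dark-grown wild type, 38500 to 41543 after 2 h of light, 38035 to 40724 in dark-grown det2 and 73888 to 75583 in light-grown det2. Among the named green markers only LHCB4.3 was lower in light-grown than in dark-grown det2, at 474.8 and 529.2 against 792.8 and 604.1. In whole seedlings, fewer cells of a type and less RNA per cell cannot be told apart.

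GH3.3, whose enzyme conjugates auxin to amino acids, was highest in dark-grown det2, where the 2 arrays read 1879 and 1677 signal units. It read 393 and 313 in dark-grown wild type, 518 and 469 with BL, 69.8 and 96.1 after 2 h of light, and 154 and 189.7 with BL and light. In det2 it read 823 and 858 in light-grown seedlings and 581 and 514 after 8 h of darkness. All 3 det2 groups had higher mean signals than the 4 wild-type groups, and the top and bottom groups differed 21.4-fold in mean. The only neighbours in the order of levels whose arrays overlapped were dark-shifted det2 and dark-grown wild type with BL.

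GH3.5, whose enzyme accepts auxin and salicylic acid, held the narrowest range of the 5 genes. Its arrays read 2587 and 2404 in dark-grown wild type, 2230.0 and 2619 with BL, 1626 and 2232 after light, and 1729 and 1855 with BL and light. In det2 it read 2473 and 2494 in the dark, 1719.7 and 1748 in the light, and 3021 and 3066 after 8 h of darkness. The top and bottom groups differed 1.76-fold, and every group overlapped the next one in the order of levels except dark-shifted det2, which stood alone above the rest.

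GH3.17, whose enzyme prefers glutamate as the amino acid joined to auxin, was highest in dark-grown wild type, at 1935 and 1763. It read 1210.2 and 1574 with BL, 1017.5 and 1002 after light, and 551 and 731.5 with BL and light. In det2 it read 777 and 811 in the dark, 714 and 681 in the light, and 1508 and 1520.1 after 8 h of darkness. The span was 2.88-fold in mean, and the arrays of BL-treated wild type overlapped those of dark-shifted det2, as did those of BL-treated wild type after light and light-grown det2.

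IAA29, an Aux/IAA repressor gene known as a target of the phytochrome-interacting factors that act in darkness and shade, was highest in dark-grown det2, at 1054 and 1012. It read 382.5 and 304 in dark-grown wild type, 275 and 255.5 with BL, 65.2 and 98 after light, and 72 and 126 with BL and light. In det2 it read 148 and 176 in the light and 787 and 738 after 8 h of darkness. The top and bottom groups differed 12.7-fold, and only the 2 wild-type groups moved to light overlapped. Every dark-sampled group read above every group sampled in light.

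HAT2, a class II homeodomain-leucine zipper gene induced by auxin and by shade, was highest in wild type in the dark, at 1528 and 1096 without BL and 1496 and 1413 with it. It read 387 and 529 after light, and 624 and 837 with BL and light. In det2 it read 619.9 and 626 in the dark, 506 and 545 in the light, and 1169 and 1174 after 8 h of darkness. The span was 3.18-fold. The 2 dark wild-type groups overlapped, as did dark-grown wild type with dark-shifted det2, BL-treated wild type after light with dark-grown det2, and light-grown det2 with wild type after light.

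**Figure D1:**
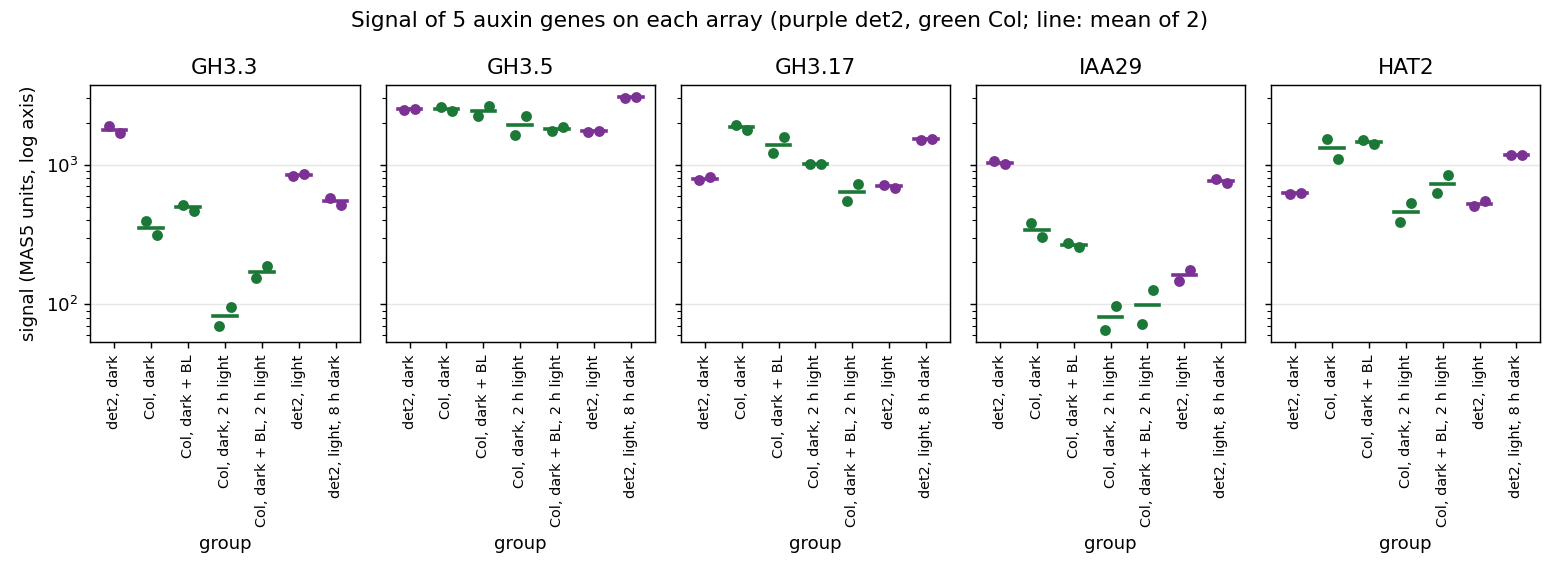
Signal of GH3.3, GH3.5, GH3.17, IAA29 and HAT2 on each array, on a log axis in MAS5 signal units, for the 7 groups (points are arrays, lines are means of 2, purple is det2 and green is Col). GH3.3 and IAA29 peak in dark-grown det2, at 1778 and 1033 on average, whereas GH3.17 and HAT2 stand lower there than in dark-grown Col; heights of different genes are not comparable because they come from different probes.

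For the tests, values were taken as log2(signal + 16), a linear model was fitted to all 17787 probe sets, and adjusted p-values (Benjamini-Hochberg over all of them) under 0.05 were called. Log2 changes are given with their standard error from that model. Several comparisons share arrays: dark-grown wild type serves BL in the dark, light in wild type and det2 against wild type, and each det2 group serves 2 comparisons or more, so changes in comparisons with a common group are set side by side and not counted as separate evidence.

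Light for 2 h in wild type lowered 4 of the 5 genes, against 9.76% of all probe sets that fell and 10.1% that rose. GH3.3 fell by 1.90 ± 0.19 on the log2 scale (SE, adjusted p = 1.43e-05), from 352.9 ± 56.8 to 82.94 ± 18.6 signal units (SD, n = 2). IAA29 fell by 1.89 ± 0.24 (adjusted p = 0.000107), from 343.2 ± 55.5 to 81.59 ± 23.2. These were the deepest falls of the 5, at 3.74-fold and 3.71-fold. HAT2 fell by 1.48 ± 0.20 (adjusted p = 0.000163) and GH3.17 by 0.86 ± 0.17 (adjusted p = 0.00262). GH3.5 stood at -0.39 ± 0.15 and did not pass (adjusted p = 0.102), except when light-exposed array 2 was left out (adjusted p = 0.0149). The median of the 5 genes was -1.48, beside -0.12 over all probe sets. Light and handling cannot be told apart here, since no group was moved without it.

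Within the replicate numbers the light effect was deeper in replicate 1 than in replicate 2 for all 5 genes. The 5 genes are read on the same arrays, so these are not 5 separate observations. The share over all probe sets is not given here. GH3.3 stood at -2.25 in replicate 1 and -1.55 in replicate 2, and HAT2 at -1.94 and -1.03. IAA29 stood at -2.30 and -1.49 and GH3.5 at -0.66 and -0.11, while GH3.17 was close in both, at -0.92 and -0.81.

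Light also lowered 4 of 5 genes in BL-treated wild type, where 8.38% of all probe sets fell and 8.97% rose. GH3.3 fell by 1.45 ± 0.19 (adjusted p = 0.000153), from 493.8 ± 34.6 to 171.8 ± 25.3 signal units (SD, n = 2). IAA29 fell by 1.33 ± 0.24 (adjusted p = 0.00191), GH3.17 by 1.10 ± 0.17 (adjusted p = 0.000497) and HAT2 by 0.99 ± 0.20 (adjusted p = 0.00379). GH3.5 stood at -0.43 ± 0.15 and did not pass (adjusted p = 0.0759). The median was -1.10, beside -0.06 over all probe sets. The order differed from that without BL: the change of GH3.17 was larger than that of HAT2 here and smaller there, a contrast that was not tested.

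Of the other auxin genes, a list written from general knowledge held 137 beyond the 5 described, of which 17 had a named probe set and 13 passed the filter. None of the listed auxin receptors, response factors, transporters or SAUR genes has a named probe set here. With light in wild type 1 of these 13 rose and 2 fell, against 10.1% of all probe sets that rose and 9.76% that fell. With wild-type arrays alone blocked by replicate, where the numbers pair the arrays, 2 rose and 4 fell. In that fit 3924 of the 17787 probe sets passed. Without the block the riser was UGT74D1, a glucosyltransferase gene acting on auxin, at 1.29 ± 0.23 (adjusted p = 0.0015). Its arrays went from 781.5 and 708 up to 1388 and 2449. IAA20, an Aux/IAA gene whose protein lacks the usual degradation motif, fell by 1.24 ± 0.32 (adjusted p = 0.016), and LBD16, a factor of lateral root initiation, fell by 0.94 ± 0.19 (adjusted p = 0.00358). The 3 further genes under the block, named after their values were seen, were IAA18 (0.64 ± 0.19, adjusted p = 0.0339), IAA34 (-1.07 ± 0.24, adjusted p = 0.00988) and GH3.1 (-1.40 ± 0.30, adjusted p = 0.00745). IAA20 was lost with a pseudocount of 1 (adjusted p = 0.0571) and without 3 of the 4 arrays (replicate 1 or 2 of the dark group or replicate 2 of the light group, adjusted p = 0.0506, 0.0797 and 0.093).

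In BL-treated wild type light again gave 1 rise and 2 falls among the 13. Over all probe sets 8.97% rose and 8.38% fell. UGT74D1 rose by 1.35 ± 0.23 (adjusted p = 0.00126) and IAA20 fell by 1.61 ± 0.32 (adjusted p = 0.00379). YUC6, a flavin monooxygenase gene of auxin synthesis, fell by 1.32 ± 0.41 (adjusted p = 0.0432), from 151 and 75.9 to 21.6 and 50. With wild-type arrays alone blocked by replicate the YUC6 call held (adjusted p = 0.032). It was lost with a pseudocount of 1 (adjusted p = 0.0609), when only wild type was fitted (adjusted p = 0.072), and without replicate 1 of either group (adjusted p = 0.318 and 0.27). LBD16 stood at 254.5 ± 29.1 in BL-treated seedlings before light and 200.2 ± 14.7 after it.

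BL in dark-grown wild type moved 0 of the 5 genes past the limma test, against 1.53% of all probe sets higher and 1.89% lower. At an unadjusted p under 0.05 there were 2615 of the 17787 probe sets and 2 of the 5 genes. The 2 genes were GH3.3 and GH3.17. GH3.3 stood at 0.47 ± 0.19 with a 95% interval of 0.06 to 0.88 (adjusted p = 0.246). GH3.17 stood at -0.42 ± 0.17 with an interval of -0.78 to -0.05 (adjusted p = 0.25). GH3.3 read higher with BL while GH3.17 read lower. The intervals of the others were -0.87 to 0.18 for IAA29, -0.27 to 0.60 for HAT2 and -0.38 to 0.29 for GH3.5. The median was -0.04, beside 0.05 over all probe sets.

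With BL in darkness, where 1.53% of all probe sets rose and 1.89% fell, LBD16 was the only one of the other 13 genes past the test. It fell by 1.21 ± 0.19 (adjusted p = 0.00411) from 657 and 564 to 234 and 275. Leaving out BL-treated array 1 ended the call (adjusted p = 0.0515). With wild-type arrays alone blocked by replicate, IAA20, also named after its value was seen, passed as well, at 0.86 ± 0.21 (adjusted p = 0.0464). The root hair markers were low in the same group: EXPA7 and EXPA18 together summed to 378 to 795 signal units without BL and 86 to 343 with it. Their part in the LBD16 value was not tested.

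After light, BL-treated wild type had more GH3.3 and less GH3.17 than wild type without BL. GH3.3 rose by 0.93 ± 0.19 (adjusted p = 0.0149), 1.91-fold, and GH3.17 fell by 0.66 ± 0.17 (adjusted p = 0.045), 1.58-fold. Across all probe sets 2.17% rose and 2.08% fell. EXPA7 and EXPA18 together summed to 371 to 495 signal units after light without BL and 92 to 228 with it, and the part of root hairs in the GH3 values was not tested. HAT2 stood at 0.66 ± 0.20 and did not pass (adjusted p = 0.0928). It passed when light-exposed array 2 of the group without BL was left out (adjusted p = 0.0417). IAA29 stood at 0.22 ± 0.24 (adjusted p = 0.719) and GH3.5 at -0.09 ± 0.15 (adjusted p = 0.83), both with overlapping arrays. The median was 0.22, beside 0.08 over all probe sets.

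The 2 calls with BL after light depended on the arrays used. With wild-type arrays alone the adjusted p was 0.104 for GH3.3 and 0.214 for GH3.17, and blocking those arrays by replicate gave 0.0365 and 0.071. The GH3.3 call ended when either BL-treated array 2 (adjusted p = 0.119) or array 1 of the group without BL (adjusted p = 0.112) was left out. That of GH3.17 ended without BL-treated array 1 (adjusted p = 0.215), without array 1 or 2 of the group lacking BL (adjusted p = 0.157 and 0.0865) and under quantile normalization (adjusted p = 0.0662). Within replicates the differences kept their sign, at 0.99 and 0.88 for GH3.3 and -0.87 and -0.45 for GH3.17.

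Among the other 13 genes 1 rose with BL after light, where 2.17% of all probe sets rose and 2.08% fell. IAA34, another Aux/IAA gene without the usual degradation motif, rose by 2.37 ± 0.46 (adjusted p = 0.0106), from 23.2 and 28.3 to 170.5 and 232. With a pseudocount of 64 the change was 1.55. The call was lost with a pseudocount of 1 (a change of 2.91, adjusted p = 0.072), without BL-treated array 2 (adjusted p = 0.101) and without array 1 of the group lacking BL (adjusted p = 0.0743).

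Whether BL altered the response to light was tested as the interaction of the 2 treatments, and 0 of the 5 genes passed the limma test, as did 0% of all probe sets. At an unadjusted p under 0.05 there were 0 of the 5 genes and 662 of all probe sets. The term is the log2 light effect with BL minus that without it. It was 0.46 ± 0.27 for GH3.3 (95% interval -0.12 to 1.04), 0.56 ± 0.34 for IAA29 (-0.18 to 1.3) and 0.49 ± 0.28 for HAT2 (-0.12 to 1.10). For GH3.17 it was -0.24 ± 0.24 (-0.75 to 0.27) and for GH3.5 -0.04 ± 0.22 (-0.51 to 0.43). The estimates for GH3.3, IAA29 and HAT2 lie on the side of a smaller fall with BL, and each interval includes 0. The 2 other auxin genes nearest to the threshold were IAA34 (1.59 ± 0.64) and LBD16 (0.62 ± 0.27), both at adjusted p = 1 in limma.

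**Figure D2:**
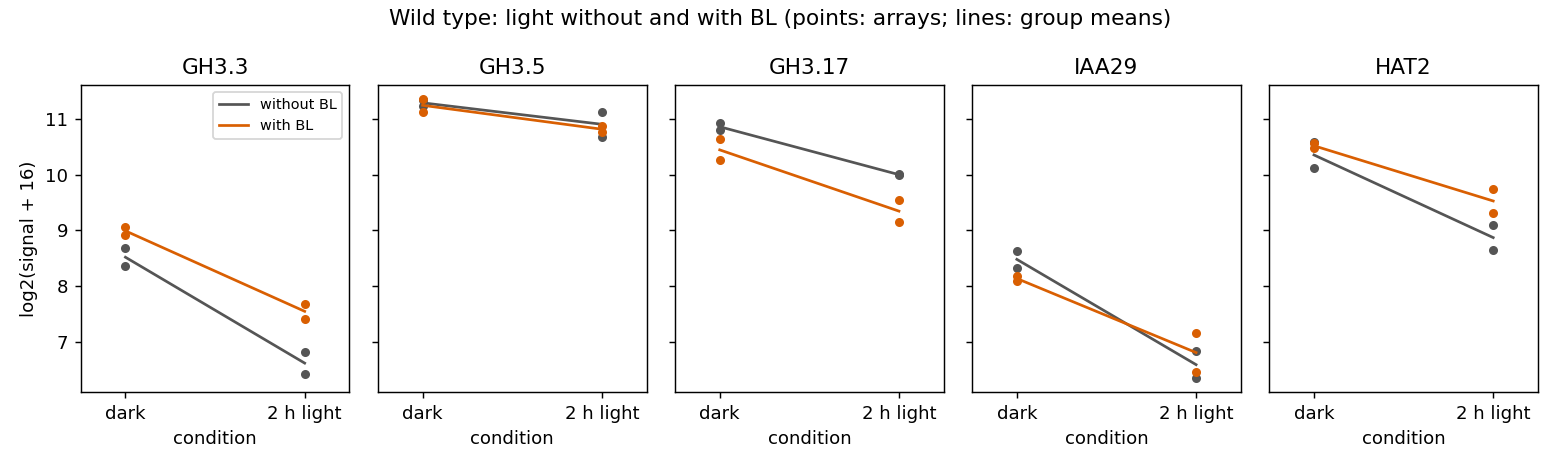
Signal of the 5 genes in wild type as log2(signal + 16), in darkness and after 2 h of light, without BL (grey) and with BL (orange), where points are arrays and lines join group means. The GH3.3 lines run apart with BL above and the GH3.17 lines with BL below, and those of IAA29 cross.

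Dark-grown det2 differed from dark-grown wild type in 4 of the 5 genes, 2 in each direction, against 19.2% of all probe sets higher and 17.9% lower. GH3.3 was higher by 2.29 ± 0.19 (adjusted p = 3.81e-06), at 1778 ± 143 against 352.9 ± 56.8 signal units (SD, n = 2), and IAA29 was higher by 1.55 ± 0.24 (adjusted p = 0.000367), at 1033 ± 30 against 343.2 ± 55.5. GH3.17 was lower by a log2 change of -1.20 ± 0.17 (adjusted p = 0.000173), at 793.9 ± 24.5 against 1849 ± 121, and HAT2 by -1.04 ± 0.20 (adjusted p = 0.00157), at 622.8 ± 4.03 against 1312 ± 306. GH3.5 stood at -0.01 ± 0.15 with a 95% interval of -0.34 to 0.33. These 4 calls were kept without each of the 4 arrays in turn.

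The pair of GH3 genes moved in opposite directions in the mutant, GH3.3 being 4.88-fold higher and GH3.17 2.30-fold lower. Set beside BL treatment of wild type in darkness, GH3.3 averaged 1778 in det2, 352.9 in wild type and 493.8 with BL, so wild type without BL was the lowest. GH3.17 averaged 793.9, 1849 and 1392 in the same order, with wild type the highest. IAA29 averaged 1033, 343.2 and 265.4 and HAT2 622.8, 1312 and 1455, both in steps of 1 direction from det2 to BL. The arrays of HAT2 without and with BL overlapped. For none of these genes did the step from wild type to BL pass the limma test (adjusted p = 0.246 to 0.809). The orders of means are therefore a description. The labels give no array dates, so a difference in handling between det2 and wild-type arrays was not tested.

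Of the other 13 auxin genes 3 were higher and 1 was lower in dark-grown det2. Over all probe sets 19.2% were higher and 17.9% lower. YUC4, of the same family as YUC6, was higher by 1.50 ± 0.38 (adjusted p = 0.00805), at 97.2 and 134 against 39.8 and 22.3. It passed the filter on low signal only through det2, with a mean of 52.31 over all arrays and 41.7 without those of dark-grown det2, so its place among the 3 is a description and not a test. YUC6 went the other way, at -2.07 ± 0.41 (adjusted p = 0.0019), with 16.6 and 21.3 against 178.5 and 94.7, and the change was -2.73 with a pseudocount of 1 and -1.24 with 64. DAO2 (AT1G14120), related to the auxin oxidase DAO1, was higher by 1.18 ± 0.26 (adjusted p = 0.0033) and IAA20 by 0.92 ± 0.32 (adjusted p = 0.0411). The IAA20 call was lost without any of the 4 arrays (adjusted p = 0.052 to 0.219), with no filter (adjusted p = 0.059) and with a pseudocount of 1 (adjusted p = 0.125). YUC4 was lost without replicate 2 of wild type (adjusted p = 0.0727) or replicate 2 of det2 (adjusted p = 0.0515).

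Light-grown det2 had less of 3 of the 5 genes than dark-grown det2, against 17.7% of all probe sets lower and 19.5% higher. IAA29 was lower by a log2 change of -2.56 ± 0.24 (adjusted p = 5.44e-06), 5.91-fold, at 161.9 ± 19.6 against 1033 ± 30 signal units (SD, n = 2). GH3.3 was lower by -1.06 ± 0.19 (adjusted p = 0.000772) and GH3.5 by -0.51 ± 0.15 (adjusted p = 0.0188). GH3.17 stood at -0.18 ± 0.17 (adjusted p = 0.425) and HAT2 at -0.24 ± 0.20 (adjusted p = 0.379), and neither passed. Their 95% intervals reached -0.55 and -0.67. GH3.5 was lost without any of the 4 arrays (adjusted p = 0.0747 to 0.0923), at log2 changes of -0.53 to -0.50. The median of the 5 was -0.51, beside 0.01 over all probe sets.

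The 2 light comparisons have different controls and durations and were not tested against each other. Their values side by side were -1.48 after 2 h in wild type and -0.24 after growth in light in det2 for HAT2, -0.86 and -0.18 for GH3.17, and -1.89 and -2.56 for IAA29. GH3.17 and HAT2 stood lower in dark-grown det2 than in dark-grown wild type, and a link to these values was not tested.

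In the list of 13, light-grown det2 had 1 gene higher and 2 lower than dark-grown det2. Over all probe sets 19.5% were higher and 17.7% lower. IAA20 read 36.3 and 11.4 in light against 440 and 609 in the dark, a log2 change of -3.82 ± 0.32 (adjusted p = 2.42e-06). That change is set in part by the pseudocount, at -4.59 with 1 and -2.74 with 64. LBD16 was lower by -1.17 ± 0.19 (adjusted p = 0.000391) and UGT74D1 higher by 1.16 ± 0.23 (adjusted p = 0.0017). The summed root hair markers read 633 to 669 signal units in light and 142 to 193 in the dark. Their part in the LBD16 value was not tested.

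After 8 h of darkness, light-grown det2 had more of 4 of the 5 genes than det2 left in light, where 5.98% of all probe sets were higher and 6.40% lower. IAA29 was higher by 2.13 ± 0.24 (adjusted p = 0.00017), 4.38-fold, at 762.2 ± 34.6 against 161.9 ± 19.6 signal units (SD, n = 2). HAT2 was higher by 1.13 ± 0.20 (adjusted p = 0.00278), GH3.17 by 1.10 ± 0.17 (adjusted p = 0.00109) and GH3.5 by 0.81 ± 0.15 (adjusted p = 0.00446). GH3.3 went the other way, at -0.61 ± 0.19, and missed the test (adjusted p = 0.0542). It passed with a pseudocount of 64 (adjusted p = 0.036), with quantile normalization (adjusted p = 0.0271) and with det2 arrays alone (adjusted p = 0.00108). The dark-shifted seedlings were 14 days old and those in light 7 days, so darkness and age cannot be told apart. The median of the 5 was 1.10, beside 0.03 over all probe sets.

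YUC2, a gene of the same auxin synthesis family, was the only one of the other 13 past the test. Over all probe sets 5.98% were higher and 6.40% lower. YUC2 was higher by 0.85 ± 0.26 (adjusted p = 0.0497). Its arrays read 142 and 237 in light and 353 and 338 after darkness. The call was lost without replicate 1 of light-grown det2 (adjusted p = 0.403), without either dark-shifted array (adjusted p = 0.21 and 0.177), with no filter (adjusted p = 0.0767) and with a pseudocount of 1 (adjusted p = 0.0582). Summed green markers were 52547 to 54408 after the dark shift, against 73888 to 75583 in light.

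Dark-shifted det2 was also set against det2 grown in the dark throughout. There 2 of the 5 genes were higher and 1 lower, against 16.2% of all probe sets higher and 13.0% lower. GH3.17 was higher by 0.92 ± 0.17 (adjusted p = 0.0014), at 1514 ± 8.41 against 793.9 ± 24.5 signal units (SD, n = 2), and HAT2 by 0.89 ± 0.20 (adjusted p = 0.00508). GH3.3 was lower by -1.67 ± 0.19 (adjusted p = 4.12e-05), at 30.8% of its dark-grown level. IAA29 stood at 73.8% of its dark-grown level and did not pass (-0.43 ± 0.24, adjusted p = 0.202), nor did GH3.5 (0.29 ± 0.15, adjusted p = 0.175). With det2 arrays alone both of these passed (adjusted p = 0.0171 and 0.00418). That fit also gave more calls over all probe sets in the other comparisons within det2. Age and history of light differ between these groups and cannot be told apart.

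Of the other 13 genes 2 were higher and 5 lower in that comparison, against 16.2% of all probe sets higher and 13.0% lower. The largest differences were those of IAA20 (-3.53 ± 0.32, adjusted p = 8.14e-06), IAA34 (-1.64 ± 0.46, adjusted p = 0.0163), GH3.1 (-1.47 ± 0.51, adjusted p = 0.0439) and LBD16 (-1.26 ± 0.19, adjusted p = 0.000361). IAA20 read 43.3 and 19.8 after the dark shift and 440 and 609 in the dark-grown seedlings. With a pseudocount of 1 and of 64 the IAA20 value was -4.09 and -2.62, and those of IAA34 were -2.75 and -0.85. In the dark-shifted group GH3.1, a conjugating enzyme gene, read 69.6 and 7.5 and IAA34 read 44.6 and 3, so both rest on replicate 2, without which they stood at -0.54 and -0.81 and did not pass (adjusted p = 0.428 and 0.175). Both were also lost without either dark-grown array (adjusted p = 0.0736 and 0.191 for GH3.1, and 0.0632 and 0.0625 for IAA34). IAA20 averaged 31.55 ± 16.6 signal units after 8 h of darkness and 23.85 ± 17.6 in light, with overlapping arrays, where IAA29 averaged 762.2 ± 34.6 and 161.9 ± 19.6.

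**Figure D3:**
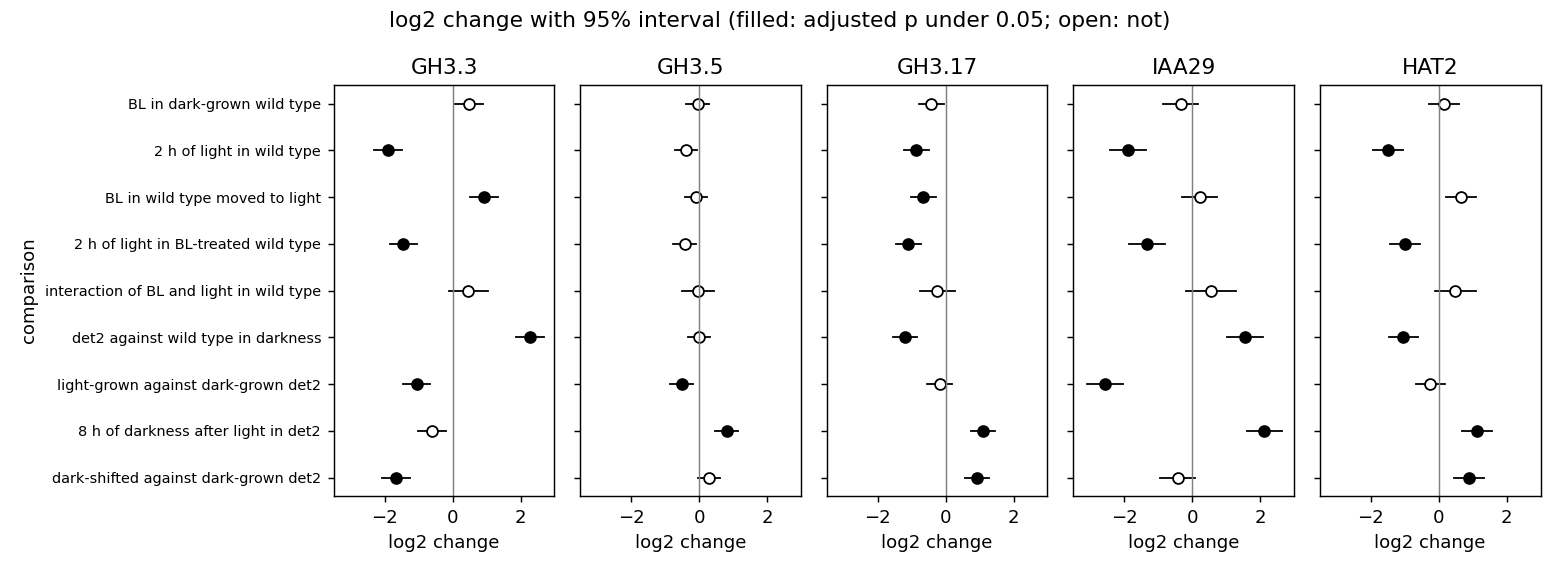
Log2 change of each of the 5 genes in 8 comparisons and for the interaction of BL and light, with 95% intervals from the model (filled points have an adjusted p under 0.05). GH3.5 lies between -0.51 and 0.81 throughout, whereas GH3.3 runs from -1.90 to 2.29 and IAA29 from -2.56 to 2.13.

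**Figure D4:**
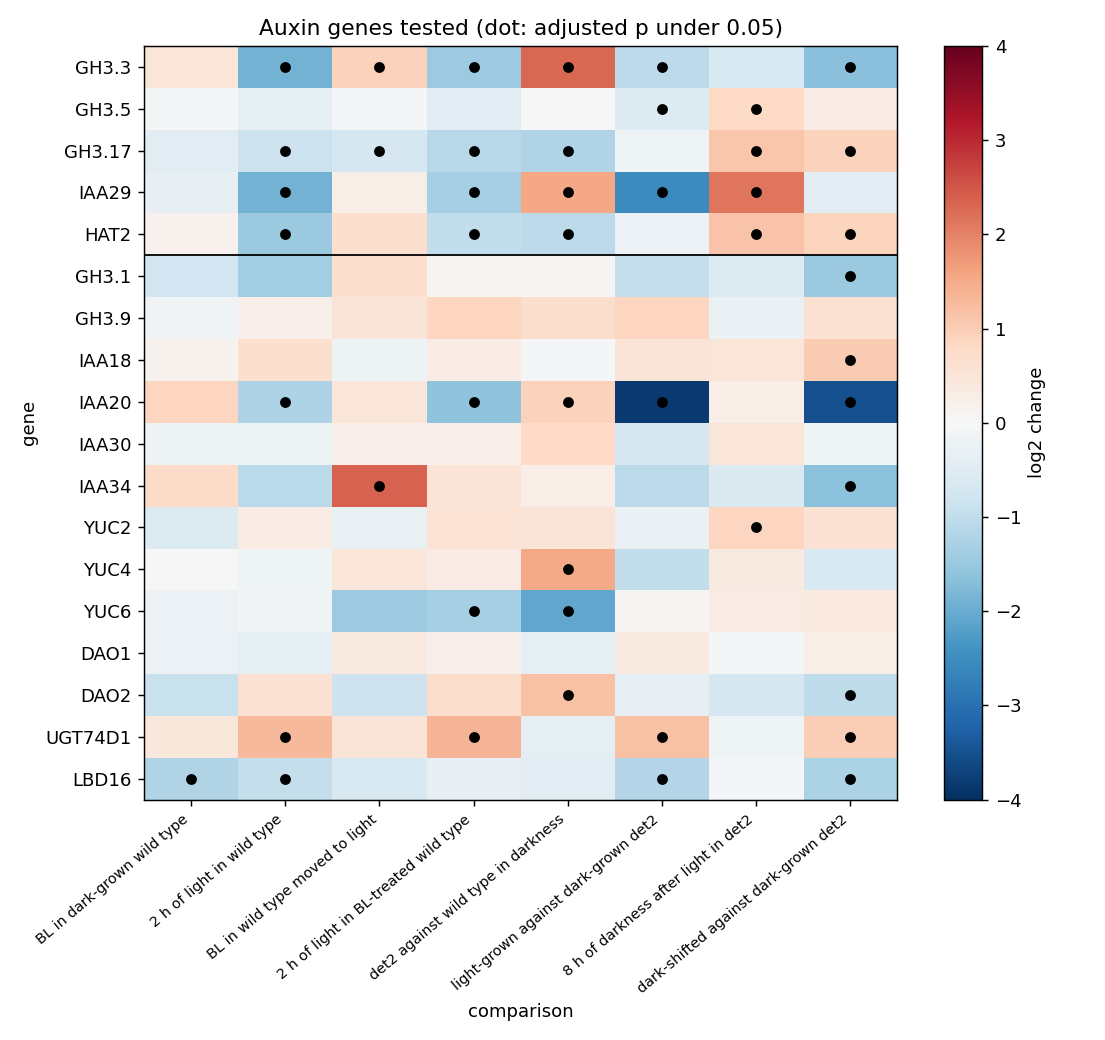
Log2 change of the 18 auxin genes tested (rows, the 5 described above the line) in 8 comparisons (columns), red for higher and blue for lower, with a dot where the adjusted p is under 0.05. Light lowers 4 of the top 5 rows in wild type without and with BL, and IAA20 has the deepest blue cell, at -3.82 in light-grown against dark-grown det2.

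As a description of likeness, log2 group means over the 7 groups correlated at r = 0.84 between GH3.5 and IAA29, 0.79 between GH3.3 and IAA29, 0.77 between GH3.17 and HAT2 and 0.75 between GH3.5 and GH3.17. GH3.3 and GH3.17 stood at -0.06 and GH3.3 and HAT2 at 0.15. Over the 4 wild-type groups alone GH3.3 and GH3.17 correlated at 0.60, and all pairs were at 0.60 or above. The points share the light and genotype contrasts of the design.

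The genes most like each of the 5 were sought among 9900 other probe sets of 1 gene by Pearson's r over the 14 arrays. For IAA29 they were AT3G15610, AT3G57800, AT4G26400 and AT2G10940 (r = 0.964 to 0.973), and for GH3.3 AT5G16060, AT3G27640, AT4G36970 and AT3G29375 (r = 0.951 to 0.971). For GH3.17 they were AT2G36410, AT1G61740, AT2G30930 and AT5G01610 (r = 0.888 to 0.937). For HAT2 they were AT2G25800, BZIP61, AT1G06890 and AT1G19380 (r = 0.897 to 0.921), and for GH3.5 AT2G28200, AT4G13160, AT4G12690 and TRM26 (r = 0.891 to 0.909). None of these 20 genes is on the auxin list, but only 18 listed genes passed the filter, few beside the 9900 searched. Arrays of 1 group are not independent points in these values.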

How the data were processed

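Total RNA of Arabidopsis seedlings was hybridised to 1-colour Affymetrix arrays, and the authors deposited 1 table of linear intensity values over 14 arrays, with MAS5 and limma named in the submitters' processing notes and no versions given in the sources used here. Every array had a mean of 500 after trimming 2% of probe sets from either tail, which shows that the deposited values were already scaled, and scaling again moved them by at most 8.82e-05 of themselves. Values of single probes and detection calls were not analysed here. Groups and replicate numbers came from the sample titles, which do not state separate cultures, so the p-values may reflect technical spread between arrays only. With 2 arrays in a group, precision is limited by their number.

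The 64 control probe sets and 4959 with a mean under 50 were set aside. For the other 17787, log2(value + 16) on the 14 arrays was modelled by group with limma 3.58.1 (R 4.3.3, variance trend on), and p-values are two-sided with Benjamini-Hochberg adjustment within each of 9 comparisons. Folds of tested changes are on that scale, which understates changes of low genes. The folds between the top and bottom groups of a gene are ratios of mean signals. Probe sets were named through GEO's platform annotation and RefSeq locus tags (TAIR10.1): 13513 have 1 gene, 503 several and 8794 are unnamed here. The fit was tested on simulated data with independent noise on each array, which cannot show how the pairing of wild-type arrays affects it. The 5 genes, the auxin list of 142 and the tests were chosen with earlier results of these data known. Beside the 5 genes, up to 4 listed genes per comparison with the largest change past the test are named, or the 2 with the lowest p where none passed, and the 4 genes most like each of the 5.

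Deviations of same-numbered arrays from their group means correlated at 0.226 to 0.429 between wild-type groups and at -0.0326 to 0.0164 between det2 groups, so the numbers were read as pairing the wild-type arrays only. The main fit has no replicate term, so its wild-type values leave that pairing out. Alternatives were pseudocounts of 1 and 64, no filter, quantile normalization, the replicate number as a block, arrays of 1 genotype alone, and each array left out in turn. Figures were drawn with matplotlib 3.10.9.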

Additional observations from a re-analysis of the deposited data

How the results depend on the processing

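Of the 45 values that the 5 genes have over the 9 comparisons, 24 passed the test, and none of these 24 changed direction under any alternative run. Of 490 recomputed values 470 kept their side of the threshold, 13 lost it and 7 gained it, and every one of these 20 stands in the report. The lost calls were those of GH3.3 and GH3.17 with BL after light and of GH3.5 in light-grown det2. The number of the 5 genes called with BL after light was 2, and it was 1 with quantile normalization, 0 with wild-type arrays alone, 1 with wild-type arrays alone and the replicate number as a block, and 0 to 2 with an array left out. In dark-shifted against dark-grown det2 it was 3 and rose to 5 with det2 arrays alone. The other comparisons within det2 also gained calls over all probe sets in that fit. Light-grown against dark-grown det2 had 8728 in place of 6614, and the dark shift had 4767 in place of 2202. The block fitted over all arrays changed no call of the 5 genes, with adjusted p = 0.0326 for GH3.17 with BL after light and 0.0518 for GH3.3, uncalled, after 8 h of darkness in det2.

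Among all 18 auxin genes tested, those called with BL in darkness numbered 1, 2 with wild-type arrays alone and the replicate block, and 0 to 1 with an array left out (0 without replicate 1 of the BL-treated seedlings). With BL after light they numbered 3, 1 with wild-type arrays alone, and 0 to 4 with an array left out (0 without replicate 1 of the seedlings without BL and 1 without replicate 2 of those with it). After 8 h of darkness in det2 they numbered 5, 8 with det2 arrays alone and 4 to 5 with an array left out. Over all probe sets, fits to 1 genotype alone gave 175 calls in place of 608 for BL in darkness, 2253 in place of 3526 for light, 214 in place of 756 for BL after light, 1979 in place of 3087 for light with BL and 4767 in place of 2202 for the dark shift of det2. Leaving out an array gave 184 to 526, 2658 to 3008, 299 to 965, 1989 to 2630 and 791 to 905 in the same order, 4394 to 4965 in place of 6614 for light-grown det2, and 2972 to 3631 in place of 5203 for dark-shifted against dark-grown det2. The interaction had 0 calls, also with each array left out, and 2 with a pseudocount of 64 and 2 with wild-type arrays alone and the replicate block. A group with an array left out has 1 array, which is assumed to vary like the other groups. The other causes of these shifts were not tested.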

Other observations

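LBD29, a lateral root factor related to LBD16, had too low a mean signal to be tested. Its arrays read 117 and 89.6 in dark-grown wild type, 31.6 and 21.2 with BL, 31.2 and 45.4 after light, and 13.8 and 11 with BL and light. The highest values were those of dark-grown wild type, whose arrays lay above those of the other 6 groups. In det2 it read 4.9 and 64.6 in the dark, and from 13.6 to 50.6 in the other groups.

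The other auxin genes under the filter were IAA31, IAA33 and the glucosyltransferase gene UGT84B1, which lay between 6.6 and 97.6, 9.5 and 73.8, and 1.4 and 57.2 signal units over the 14 arrays. Of the genes tested, GH3.9, IAA30 and DAO1 passed in none of the 9 comparisons of the main fit. With the replicate number as a block over all arrays, IAA30 passed in dark-grown det2 against wild type (0.81 ± 0.3, adjusted p = 0.0497). GH3.9 passed the filter on low signal only through light-grown det2, with a mean of 56.9 over all arrays and 48.1 without that group. DAO1 (AT1G14130), which encodes the main auxin oxidase, read 281 to 468 over all arrays.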
